A study of Homo sapiens with 2 samples.

Results

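The IFIT family was followed in HSC-1, a tumour cell line of human cutaneous squamous cell carcinoma, after knockdown of the long noncoding RNA LINP1. The members were the 4 rows of the gene table that carry the symbols IFIT1, IFIT2, IFIT3 and IFIT5, out of 44591 genes in the table, and all 4 were among the 19840 genes whose reads in both libraries together came to at least 10. They were chosen from the fold changes measured in these same libraries, so their values are a description and no test was made of them. Total RNA was sequenced from HSC-1 cells that had received either the control siRNA siNC or siLINP1, which targets LINP1, and each condition has 1 library. Both cultures spent 6 h without serum after the transfection reagent was added and then 24 h in medium with serum. Both received a transfected siRNA, no untransfected library was analysed here, and which siLINP1 oligonucleotide was used is not named. With 1 library per condition, the knockdown, the sequence of the siRNA and the culture cannot be told apart. The study asked which transcripts change when LINP1 is reduced.

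IFIT proteins (interferon-induced proteins with tetratricopeptide repeats) are built from short helical repeats that together form a groove for RNA. Their genes are transcribed little in resting cells and strongly after type I or type III interferon, or after a cytoplasmic RNA sensor activates IRF3. IFIT1 binds RNA whose cap lacks ribose methylation, a mark of foreign RNA, and blocks its translation. IFIT3 joins IFIT1 and stabilises it, IFIT2 forms complexes with both and is known for binding AU-rich RNA, and IFIT5 binds uncapped RNA with a triphosphate end on its own. The keratinocyte, from which this tumour type arises, makes and answers interferon at the skin barrier.

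LINP1, the targeted transcript, was counted 167 times in siNC and 23 times in siLINP1, a log2 fold change of -2.65 with a 95% interval of -3.35 to -2.02. The siNC library held 18829544 counted reads and the siLINP1 library 15383081. The 17 squamous keratinocyte markers all had reads and together took 777.4 CPM (counts scaled to library size) in siNC and 789.7 in siLINP1. Most of these reads came from ITGB4, ITGA6 and LAMB3, so the sum says little of the other markers. The integrin genes ITGB4 and ITGA6 had 5990 and 4677 reads in siNC and 3962 and 5058 in siLINP1, and the laminin gene LAMB3 had 1958 and 1504. KRT14 had 243 and 87 reads, JUP had 301 and 154, SFN had 264 and 138 and COL17A1 had 162 and 400. KRT5, TP63 and CDH1 were low, with 32 and 24, 6 and 8, and 14 and 3 reads, so part of the markers of the labelled cell type stood near 0. Of 9 mesenchymal markers the filament gene VIM had 61097 and 41992 reads, and the others had far fewer. FN1 had 1151 and 753, PDGFRB had 369 and 172, LUM had 222 and 87, COL1A1 had 190 and 79 and DCN had 29 and 2. COL1A2, COL3A1 and THY1, given to complete the list, had 4 and 8, 8 and 6, and 1 and 0 reads. Of 12 leukocyte markers, CD3D, CD3E, MS4A1 and CLEC4C had no read in either library and PTPRC had 1 and 4, while HLA-DRA had 3093 and 1917 and CD68 had 1702 and 1307. Summed over the list, the leukocyte markers took 258.5 CPM in siNC and 211.6 in siLINP1. KRT5, TP63, CDH1 and the leukocyte genes named before HLA-DRA were chosen as defining markers after their values had been seen.

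The 4 genes stand in a row on the plus strand of chromosome 10 within 119054 bases (GRCh37). IFIT2 comes first, at chr10:91061706-91069033, followed by IFIT3 at chr10:91087576-91100725, IFIT1 at chr10:91152303-91166244 and IFIT5 at chr10:91174325-91180759. No other row of the table overlaps any of the 4. They share one gene structure: the canonical transcript of each has 2 exons, of which the first holds 5 coding bases and the second the rest, between 99.6% and 99.7% of the coding sequence. The coding sequence is 1434 bases in IFIT1, 1416 in IFIT2, 1470 in IFIT3 and 1446 in IFIT5. In spite of the common origin, no stretch of 50 bases was the same between the annotated transcripts of any pair of these 4 genes. IFIT1 and its paralog IFIT1B shared 38 such stretches, which is 0.824% of those in IFIT1 and 1.98% of those in IFIT1B.

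The promoters are shown because interferon acts on these genes through a short element, the interferon-stimulated response element, whose core is GAAA, any 2 bases and GAAA. It was searched on both strands in windows of 300 bases, from 250 bases before to 50 bases after each annotated start, in the RefSeq promoters of GRCh38.p14. That build differs from the one of the counts, and its coordinates are given for these sequences only. The 250 bases before the start are printed on the plus strand, with complete matches in capitals; there the core reads as its reverse complement, with TTTC on either side of the gap. A window with no capitals lacks these letters in that arrangement and no more. IFIT3 has a pair of annotated starts, the upstream one at chr10:89327747-89327996 and the downstream one at chr10:89332279-89332528. The IFIT1 window is at chr10:89392373-89392622, that of IFIT5 at chr10:89414318-89414567 and that of IFIT1B, a neighbour with hardly any reads, at chr10:89377806-89378055. IFIT2 was not among the promoters analysed here.
IFIT3, upstream start: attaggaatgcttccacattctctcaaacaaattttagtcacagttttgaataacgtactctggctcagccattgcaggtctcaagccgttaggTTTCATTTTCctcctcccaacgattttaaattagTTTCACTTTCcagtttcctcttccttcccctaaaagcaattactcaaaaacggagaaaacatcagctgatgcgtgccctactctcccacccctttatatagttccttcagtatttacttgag
IFIT3, downstream start: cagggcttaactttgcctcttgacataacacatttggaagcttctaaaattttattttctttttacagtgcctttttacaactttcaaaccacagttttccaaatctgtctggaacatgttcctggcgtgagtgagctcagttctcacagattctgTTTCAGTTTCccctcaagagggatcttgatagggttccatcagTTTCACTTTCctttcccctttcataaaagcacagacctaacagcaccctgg
IFIT1: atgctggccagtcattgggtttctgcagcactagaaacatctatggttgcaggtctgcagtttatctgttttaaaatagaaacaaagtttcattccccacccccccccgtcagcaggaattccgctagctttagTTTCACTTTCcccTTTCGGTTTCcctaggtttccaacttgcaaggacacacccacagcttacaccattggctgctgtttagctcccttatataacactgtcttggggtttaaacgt
IFIT5: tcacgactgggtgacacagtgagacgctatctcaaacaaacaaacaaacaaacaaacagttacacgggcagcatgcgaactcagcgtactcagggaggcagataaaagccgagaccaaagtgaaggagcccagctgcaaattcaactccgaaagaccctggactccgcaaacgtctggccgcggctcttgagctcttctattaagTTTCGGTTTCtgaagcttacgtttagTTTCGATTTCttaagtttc
IFIT1B: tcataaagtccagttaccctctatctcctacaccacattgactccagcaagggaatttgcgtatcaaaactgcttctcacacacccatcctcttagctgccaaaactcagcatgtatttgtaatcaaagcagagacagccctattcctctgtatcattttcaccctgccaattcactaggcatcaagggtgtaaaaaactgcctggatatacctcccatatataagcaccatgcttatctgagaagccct

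The core was found in each of the 4 windows of IFIT1, IFIT3 and IFIT5, and not in IFIT1B. Both IFIT3 starts had 2 matches, which began at positions -156 and -122 from the upstream start and at -94 and -51 from the downstream one, where -1 is the base just before the start. The 2 matches of IFIT1 began at -116 and -103. IFIT5 had 3, which began at -45, -19 and -4. The last of these runs across the start and is therefore not in capitals. Among all 35116 promoters searched, 3.57% had at least 1 match, 0.259% had at least 2 and 0.0370% had at least 3. So the members with a promoter in the table all belong to the small share of promoters with more than 1 match.

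**Figure D1:**
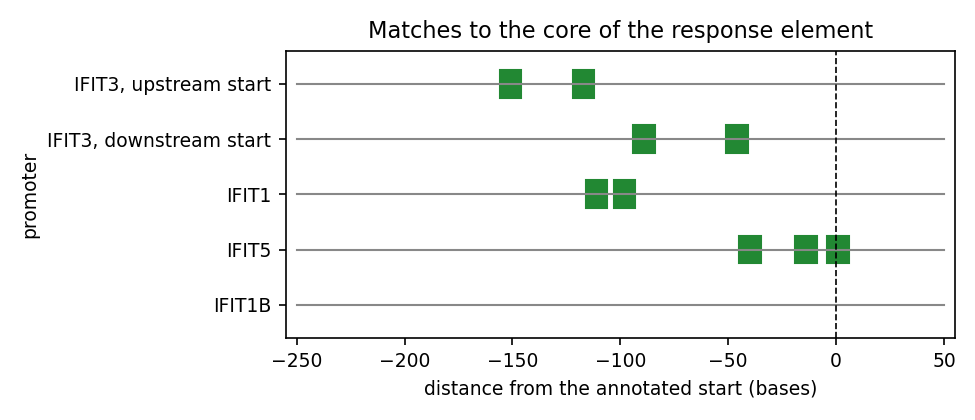
Matches to the core of the interferon-stimulated response element (green boxes) along promoter windows of 300 bases, with the distance from the annotated start in bases on the horizontal axis and the start as a dashed line. The IFIT3 and IFIT1 windows hold 2 matches each, IFIT5 holds 3 closer to its start, and IFIT1B holds none.

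IFIT2 differed most between the libraries. It had 692 reads in siNC against 7303 in siLINP1. Per length this was 10.5 RPKM (the read count divided by gene length and library size; 95% Poisson interval 9.75 to 11.3) and 135.8 RPKM (132.7 to 139.0). After scaling by median-of-ratios size factors the siLINP1 value was 12.2-fold higher, a log2 fold change of 3.61 (3.50 to 3.72). Every interval of a gene, or of a comparison between genes, covers counting error only, as neither condition has a replicate that would show how cultures vary. Intervals of list medians, given further on, reflect the spread between the genes of a list instead. In bulk RNA, more cells expressing a gene and more RNA per cell cannot be told apart.

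IFIT1, the sensor of undermethylated caps, had 314 reads in siNC against 1451 in siLINP1, or 3.53 RPKM (3.15 to 3.94) and 20.0 RPKM (18.9 to 21.0). The scaled value was 5.34-fold higher in siLINP1, a log2 fold change of 2.42 (2.24 to 2.60). IFIT3, its stabilising partner, had 771 and 2469 reads, or 14.4 RPKM (13.4 to 15.5) and 56.5 RPKM (54.3 to 58.8). Its scaled value was 3.70-fold higher, a log2 fold change of 1.89 (1.77 to 2.01). For IFIT1 and IFIT3 the counting intervals of the libraries lay far apart.

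IFIT5, which works without the other three, differed least between the libraries. It had 591 reads in siNC against 639 in siLINP1, or 7.78 RPKM (7.17 to 8.43) and 10.3 RPKM (9.51 to 11.1). The scaled value was 1.25-fold higher, a log2 fold change of 0.32 (0.16 to 0.49). Its promoter window held 3 core matches, beside 2 in the window of IFIT1 and in each of the windows of IFIT3.

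The other rows whose symbol begins with IFIT and a number had almost no reads. IFIT1B had 1 read in siNC and 2 in siLINP1, the pseudogene IFIT6P between IFIT3 and IFIT1B had 1 and 0, and IFIT1P1, a pseudogene on chromosome 13, had 0 and 3. All stayed at or under a floor of 3 reads, so no fold is given for them. Nearly all reads on rows with an IFIT symbol therefore came from the 4 members, in both libraries.

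**Figure D2:**
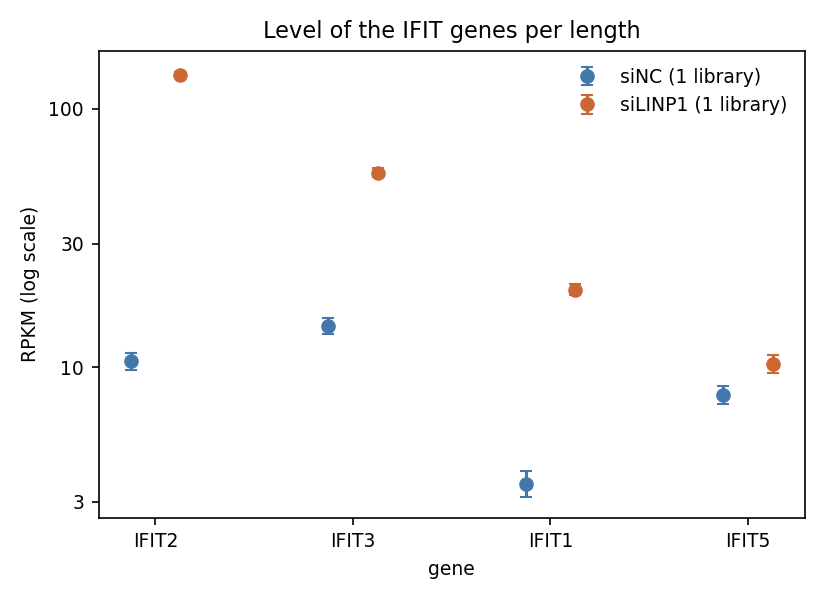
Level of the 4 IFIT genes in the siNC (blue) and siLINP1 (orange) library in RPKM on a log axis, with 95% Poisson intervals that cover counting error only. IFIT2 stands at 10.5 and 135.8 RPKM, while IFIT5 stands at 7.78 and 10.3 RPKM.

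The make-up of the family was different in the 2 libraries. Together the 4 genes took 2368 reads in siNC and 11862 in siLINP1, and their summed level was 36.2 and 222.6 RPKM. In siNC the order of the levels per length was IFIT3, IFIT2, IFIT5, IFIT1. In siLINP1 it was IFIT2, IFIT3, IFIT1, IFIT5. In each library the counting intervals of neighbours in the order did not overlap. IFIT2 made up 29.0% of the summed RPKM in siNC and 61.0% in siLINP1, and IFIT5 went from 21.5% to 4.63%. IFIT3 held 39.8% and 25.4%. IFIT1 kept a like share, 9.73% and 8.96%.

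Ratios between members within a library do not depend on the scaling of the libraries. Per length, IFIT2 stood at 0.729 of IFIT3 in siNC (0.657 to 0.809) and at 2.40 times IFIT3 in siLINP1 (2.30 to 2.52). These ratios depend on the gene length used, and with the canonical transcript in place of the length in the table they were 0.632 and 2.08. IFIT1 stood at 0.453 of IFIT5 in siNC (0.394 to 0.521) and at 1.94 times IFIT5 in siLINP1 (1.76 to 2.13). The difference in log2 fold change between members was 3.29 for IFIT2 less IFIT5 (3.09 to 3.49), 1.72 for IFIT2 less IFIT3 (1.56 to 1.88) and 0.53 for IFIT1 less IFIT3 (0.31 to 0.75). IFIT1 and IFIT3 were thus the pair closest in fold change, and IFIT2 and IFIT5 the pair furthest apart.

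Against all genes, 6.74% of the 19840 genes with at least 10 reads were higher in siLINP1 by over 2-fold and 5.33% were lower by over 2-fold, and for 1.59% the whole interval lay over 2-fold higher. IFIT1, IFIT2 and IFIT3 met the first and the third of these criteria and IFIT5 met none. The rule that chose the members used this contrast, so nothing is read from the 3 of 4. Genes with few reads more often pass a 2-fold limit, and all members had over 1000 reads. Of the 7071 genes with at least 1000 reads, 1.4% were higher and 0.269% were lower by over 2-fold, and 0.948% had the whole interval over 2-fold higher. The median log2 fold change of these genes was -0.04 and their central 95% ran from -0.63 to 0.82. IFIT2 ranked 1, IFIT1 ranked 10, IFIT3 ranked 17 and IFIT5 ranked 1072 among them, ordered by log2 fold change.

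**Figure D3:**
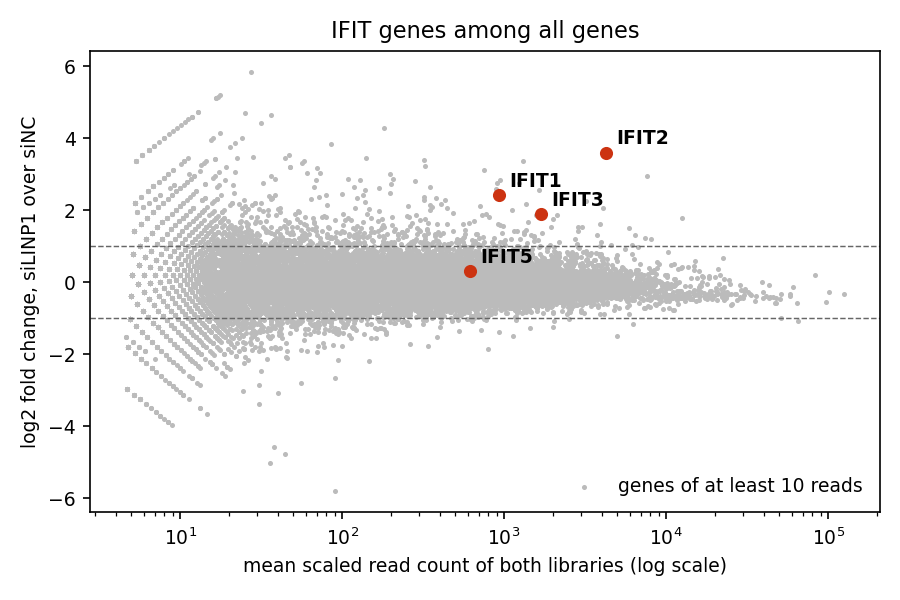
Log2 fold change of siLINP1 over siNC against the mean scaled read count of both libraries (log axis) for 19840 genes (grey), with the 4 IFIT genes in red and dashed lines at 2-fold. A gene with no read in a library was set to a floor of 3 reads. IFIT2 lies at 3.61, above all other genes of at least 1000 reads, and IFIT5 at 0.32 lies inside the cloud.

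The genes nearest in fold change to each member were taken among the 13331 genes with at least 100 reads, as a measure of likeness over these 2 libraries only. Above IFIT2 there were 2 such genes, the type III interferon gene IFNL1, with 19 and 322 reads and a log2 fold change of 4.29, and the integrin gene ITGAM, with 12 and 148 reads and 3.83. The next below it were the sodium channel gene SCN3A at 3.46 and the dehydrogenase gene DHRS2 at 3.39. IFIT1 had 34 genes above it. Its neighbours were HLF and ZNF556 just above, at 2.42 and 2.44, and the interferon-induced chemokine CXCL11 and the immediate early gene FOS just below, at 2.39 and 2.37. IFIT3 had 63 genes above it and lay between TMEM265 and ZNF702P, at 1.89 and 1.90, and the apoptosis inhibitor BIRC3 and the antiviral helicase DDX60, at 1.88 and 1.87. For IFIT5, 2595 genes were higher. SARNP and ITGA6 stood just above it and ENSG00000248837.1 just below, all at 0.32.

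Interferons are one of the signals that switch IFIT genes on. Of 10 interferon genes 5 had at least 10 reads over both libraries. All 5 were higher in siLINP1 by over 2-fold, beside 6.74% of all genes, and their median log2 fold change was 3.21. IFNL2 and IFNL3 passed the read limit only through their siLINP1 reads, so nothing is read from the 5 of 5. IFNL2, with no read in siNC, entered the median at the floor. IFNL1 is given above. IFNB1, a type I interferon gene, had 10 reads in siNC against 80 in siLINP1, a log2 fold change of 3.21 (2.26 to 4.32). IFNL3 had 2 and 45 reads, IFNL2 had 0 and 14, and IFNE, an epithelial interferon, had 12 and 26, with a log2 fold change of 1.32 (0.29 to 2.45). IFNL2 and IFNL3 are near-identical copies that can share reads, so their separate counts are uncertain. These counts are low in both libraries. IFNA1, IFNK and IFNW1 had at most 2 reads in either library, and IFNA2 and IFNG had none.

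The genes for proteins that sense RNA and for the factors below them were mixed in fold change. Of 15 such genes 3 were higher by over 2-fold and none was lower, beside 6.74% and 5.33% of all genes. The median of the 15 was 0.16 (0.01 to 0.97). The 3 were the RNA helicases of the RIG-I family. IFIH1, which encodes MDA5, had 249 reads in siNC against 1466 in siLINP1, a log2 fold change of 2.77 (2.57 to 2.97). DDX58, which encodes RIG-I, had 384 and 1175 reads and 1.82 (1.66 to 1.99), and DHX58, which encodes LGP2, had 284 and 659 reads and 1.42 (1.22 to 1.63). IRF1 had 1101 and 1825 reads, at 0.94. The adaptor gene MAVS (5094 and 4077 reads, -0.11), TRIM25 (4638 and 4070 reads, 0.02) and IRF3 (1521 and 1155 reads, -0.19) lay near 0. TLR3, the endosomal receptor of double-stranded RNA, had 113 and 57 reads, at -0.78 (-1.26 to -0.31).

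Between the interferon receptor and the promoter, no gene was past 2-fold in either direction among 9. Of all genes, 6.74% were higher and 5.33% were lower by over 2-fold. The median of the 9 was -0.05 (-0.24 to 0.16). It was 0.03 when the libraries were scaled by total count, so its sign has no weight. STAT2 had 892 reads in siNC against 866 in siLINP1, at 0.17 (0.03 to 0.30), and IRF9 had 356 and 282, at -0.13 (-0.36 to 0.10). Both encode subunits of ISGF3, the factor that binds the response element. The kinase genes JAK1 and TYK2 stood at 0.07 and 0.14, and the receptor genes IFNAR1, IFNAR2, IFNLR1 and IL10RB at -0.05, -0.11, -0.24 and -0.44. STAT2 and IRF9 are themselves known interferon-induced genes, and their log2 fold changes lay within 0.17 of 0.

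Of 9 genes for negative regulators, 1 was higher and 1 was lower by over 2-fold, beside 6.74% and 5.33% of all genes. The ubiquitin-editing enzyme gene TNFAIP3 had 718 and 2006 reads in siNC and siLINP1, at 1.69 (1.57 to 1.82). PTPN6, a phosphatase gene, had 27 and 8, at -1.55 (-2.89 to -0.37). USP18, an interferon-induced inhibitor of the receptor, had 165 and 258 reads, at 0.85 (0.57 to 1.15), and SOCS3 had 833 and 513, at -0.49.

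Of 52 other interferon-induced effector genes, 49 had at least 10 reads. Of these, 10 were higher by over 2-fold, each with its whole interval past that fold, and none was lower by over 2-fold. Of all genes, 6.74% were higher and 5.33% were lower by over 2-fold, and 1.59% had the whole interval over 2-fold higher. The median of the 49 was nonetheless 0.0030 (-0.09 to 0.44), beside -0.02 over all 19840 genes. RSAD2, which encodes the antiviral enzyme viperin, had 246 reads in siNC against 2204 in siLINP1, at 3.37 (3.18 to 3.57). OASL had 508 and 2610, at 2.57 (2.43 to 2.71), and the GTPase gene GBP5 had 15 and 118, at 3.19 (2.41 to 4.07). The remaining 7, named after their values had been seen, were CXCL11, CMPK2, ISG15, ZC3HAV1, HERC5, DDX60 and IFI44, between 1.34 and 2.39. Against these stood effectors with lower values in siLINP1: IFITM3 had 5215 and 3416 reads, at -0.40 (-0.46 to -0.34), GBP2 had 297 and 152, at -0.76 (-1.05 to -0.47), and IFI35 had 771 and 434, at -0.62 (-0.79 to -0.45). ADAR, with 5468 and 4642 reads, stood at -0.03, and LGALS3BP, with 12242 and 8358, at -0.34. IFIT1, IFIT2 and IFIT3 thus stood with a minority of the effectors, and IFIT5 with the greater number that were within 2-fold.

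**Figure D4:**
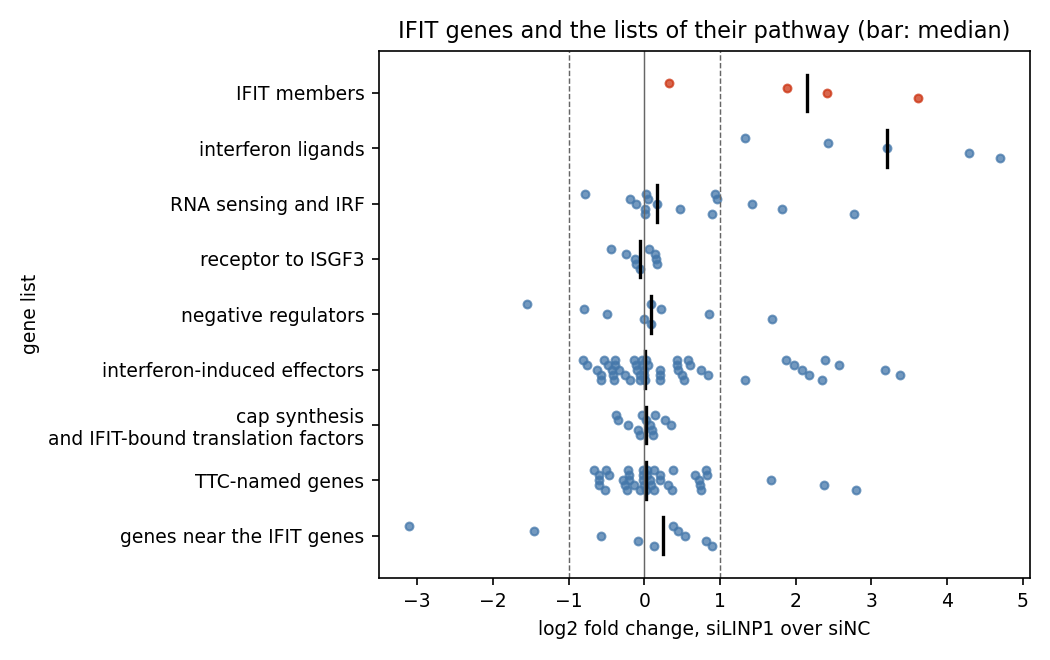
Log2 fold change of siLINP1 over siNC for the IFIT genes (red) and the genes of each list with at least 10 reads (blue), 1 point per gene, with black bars at the medians and dashed lines at 2-fold. All 5 interferon genes shown lie past 2-fold, but IFNL2 and IFNL3 reached 10 reads only through the siLINP1 library. The 9 genes from receptor to ISGF3 lie near 0, and the effectors spread from below 0 to above 3.

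The response element core was also counted in the promoters of these lists. It was present in 31 of the 43 effectors with a promoter in the table (72.1%), in 4 of 9 interferon genes, in 3 of 11 sensing genes and in 0 of 7 genes from receptor to ISGF3, beside 3.57% of all promoters. Of 28 effectors with a match and at least 10 reads, 5 had the whole interval over 2-fold higher, beside 1.59% of all genes. The median log2 fold change of the 28 was 0.13. Of 12 without a match, 3 had the whole interval over 2-fold higher and the median was -0.02. ISG15 and DDX60, with 2 matches each as in IFIT1, stood at 2.18 and 1.87, whereas IFITM3, also with 2, stood at -0.40. ZC3HAV1, CMPK2 and CXCL11 had no match and stood at 2.08, 2.34 and 2.39. Among these 28 and 12 effectors, the presence of the core did not separate those that were higher from the rest. OASL and GBP5, both higher by over 2-fold, had no promoter among those searched. Other forms of the element and places outside the windows were not searched.

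The RNA that IFIT proteins bind was not measured. Of 13 genes for cap synthesis and for the translation factors that IFIT proteins bind, none was past 2-fold in either direction. Of all genes, 6.74% were higher and 5.33% were lower by over 2-fold. The median of the 13 was 0.03 (-0.21 to 0.14). EIF3E, which encodes a subunit of the initiation factor eIF3 bound by IFIT1 and IFIT2, had 6202 reads in siNC against 4199 in siLINP1, at -0.35 (-0.41 to -0.30). EIF4G1 had 12396 and 8250, at -0.38. The cap methyltransferase gene RNMT had 1818 and 1903 reads, at 0.28, and EIF3C had 575 and 633, at 0.35 (0.18 to 0.51). EIF4A1, EIF3A and EIF3L stood at 0.10, 0.03 and -0.21.

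Tetratricopeptide repeats also occur in many proteins outside the interferon system, and 48 genes of the table have a symbol that begins with TTC, given to such proteins and to antisense transcripts of their genes. Of the 40 with at least 10 reads, 3 were higher by over 2-fold and none was lower, beside 6.74% and 5.33% of all genes. The median of the 40 was 0.03. The 3 had few reads, with 3 and 18 for the antisense transcript TTC39C-AS1, 13 and 36 for TTC9B and 2 and 9 for TTC29, the last named after its values had been seen. TTC3, with 1623 and 979 reads, stood at -0.52 (-0.64 to -0.40) and TTC27, with 393 and 596, at 0.81 (0.62 to 1.00).

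No gene around the cluster was higher in siLINP1 by as much as IFIT1, IFIT2 and IFIT3. Of 26 other genes within 500 kb, 10 had at least 10 reads. None of these was higher by over 2-fold and 2 were lower, beside 6.74% and 5.33% of all genes. Those 2, FLJ37201 with 19 and 6 reads and ENSG00000232936.1 with 10 and 1, rest on few reads. LIPA, which encodes lysosomal acid lipase and lies before IFIT2 on the opposite strand, had 700 reads in siNC against 407 in siLINP1, at -0.57 (-0.75 to -0.39). PANK1 and KIF20B, beyond IFIT5, stood at -0.08 and 0.13. On the other side, the death receptor gene FAS had 430 and 689 reads, at 0.89 (0.71 to 1.07), STAMBPL1 had 453 and 692, at 0.82 (0.65 to 0.99), and ACTA2 had 477 and 563, at 0.45 (0.27 to 0.63). FAS, ACTA2 and their antisense genes FAS-AS1 and ACTA2-AS1 overlap in part, and since the strand setting of the counting is not stated their reads cannot be assigned with certainty. Within the cluster the fold changes did not follow the order along the chromosome: IFIT3, between IFIT2 and IFIT1, had a lower one than either, and IFIT5, the last in the row, had the lowest.

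**Figure D5:**
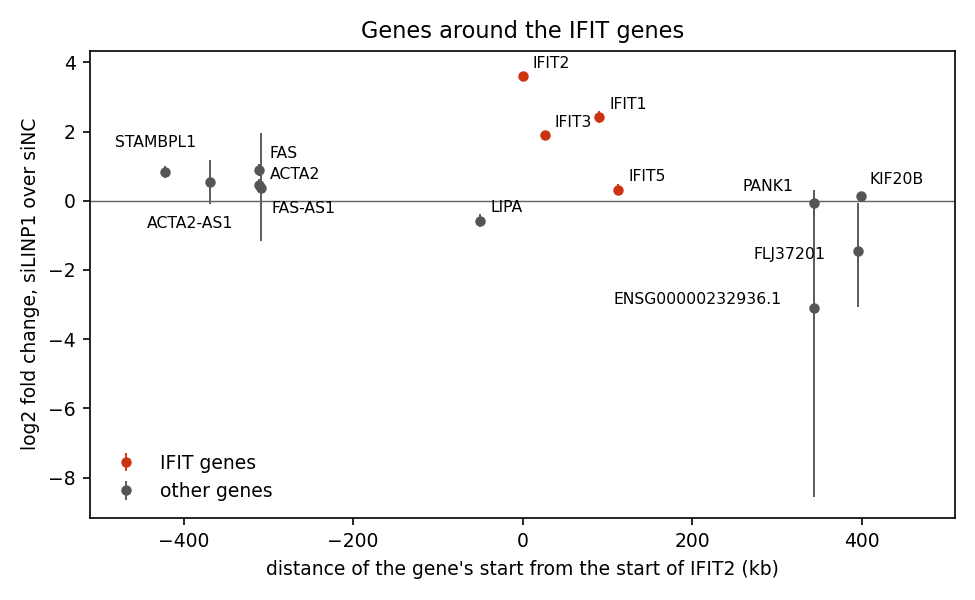
Log2 fold change of siLINP1 over siNC with 95% counting intervals, against the distance of each gene's start from that of IFIT2 in kb, for genes within 500 kb with at least 10 reads. IFIT2, IFIT1 and IFIT3 (red) lie between 1.89 and 3.61, and IFIT5 at 0.32 lies among the neighbours (grey).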

How the data were processed

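Total RNA of both cultures was sequenced by the authors (Illumina). Their methods name Tophat2, the human genome GRCh37/hg19 and HTSeq, and the submitters' processing notes also name HISAT2, HISAT and Bowtie2. Versions, the gene annotation and the strand setting are not given in the sources used here. The deposited values are raw read counts per gene. RPKM values, deposited beside them, are these counts over the table's gene length and the library total. The table has 12 other columns of per-sample values that match no labelled sample and were not used.

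The methods of the study give a different confluency and time of RNA extraction than the labels; the labels were followed. Size factors (median of ratios over genes with reads in both libraries) scaled the counts, and genes under 10 reads in all were left out. The log2 fold change has no pseudocount, and its 95% interval was had from the Clopper-Pearson limits of the share of the gene's reads in siLINP1, turned into a fold with the size factors. With 1 library per condition no test across genes was run. RPKM intervals are exact Poisson intervals. Genes with no read in a library were set to a floor of 3 reads in list medians, and no fold was taken where neither library was above the floor. Intervals of list medians are distribution-free and reflect the spread between the genes of a list, not counting error. The genes of a list are not a random sample.

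The members and the gene lists were chosen with earlier results of these data known. Named were the 4 members and other IFIT rows, LINP1, all genes of the interferon list and of the list from receptor to ISGF3, the 3 genes of each other list with most reads, the 3 highest and the 3 lowest by the nearer interval end, genes within 500 kb with at least 10 reads, and the 2 genes on either side of each member in fold change. Others are marked in the text, and some results on single genes are not reported here. Neighbours and exons came from the table and from GENCODE 44 lifted to GRCh37, and promoters from RefSeq on GRCh38.p14. The planned comparison of protein sequences was not done.

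In counts simulated with Poisson counting error only, the error the intervals allow for, 96.0% of the intervals of 19864 genes held the true fold. In the same counts, 76 of 76 changed genes of at least 1000 reads had the whole interval past 2-fold. The fold of the changed genes had been set well past 2-fold, so at this depth that outcome was fixed in advance. How well the intervals hold between replicate cultures was not tested, as each condition has 1 library. The tools were scipy 1.17.1 and numpy 2.4.6 in Python 3.11.15, with pandas 2.3.3 and matplotlib 3.10.9, and edgeR 4.0.16 in R 4.3.3 for TMM factors. Alternatives were scaling by total count or TMM, pseudocounts of 1 and 5, and minimums of 1 and 100 reads.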

Additional observations from a re-analysis of the deposited data

How the results depend on the processing

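No paired analysis was possible because each condition has 1 library. Of 56 alternative values, 3 moved and none turned the direction of a called one. A value counted as moved if it left the interval of the value given. A share of all genes has no interval and counted as moved if it changed by more than a set factor. The log2 fold changes ranged over the scalings and pseudocounts from 2.40 to 2.50 for IFIT1, 3.60 to 3.69 for IFIT2, 1.88 to 1.97 for IFIT3 and 0.32 to 0.40 for IFIT5, with the highest values under scaling by total count, which shifts all genes by 0.08. The share of all genes higher by over 2-fold was 2.71% with at least 100 reads in place of 6.74%, since genes with few reads are left out. The length of the canonical transcript, added after the data were examined, moved the IFIT2 to IFIT3 ratio as given above. The comparison of protein sequences was not run. Depth limits the pseudogenes and IFIT1B, at 3 reads or fewer, and the interferon genes; the spread between cultures is unknown for every gene.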
